A study of Mus musculus with 8 samples.

Results

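Adipokines are hormones and secreted factors of white fat, and batokines are those released by brown fat. Their genes were followed here in the brown adipose tissue (BAT) of tumor-bearing mice. The set holds 10 genes picked by symbol from a deposited table of 56953 genes: Adipoq, Lep, Retn, Rbp4, Nrg4, Vegfa, Fgf21, Nampt, Apln and Bmp8b. BAT was taken from wild-type (WT) C57BL/6J mice aged 8 to 10 weeks at the start and kept at 21 °C. The 4 CTR mice received PBS alone. The 4 mice with cancer-associated cachexia (CAC) received 3000000 Lewis lung carcinoma (LLC) cells under the skin of the right flank, were followed for 21 days and were included only if a tumor developed. Each mouse gave 1 RNAseq library. The study's methods allow male or female mice without naming the sex of each. Xist, made from the inactive X chromosome of females, reached a count of 1 at most. The Y-linked Ddx3y held 115 to 303 counts in every library, so each library showed the pattern of a male. LLC is a transplanted mouse lung tumor line, so the groups differ in the presence of a tumor as well as in cachexia.

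Brown fat burns fuel for heat through UCP1, and it also signals to other organs. Adiponectin and leptin are products of the adipocyte itself: adiponectin circulates at high levels and sensitizes tissues to insulin, and leptin reports the size of the fat stores to the brain. Batokines such as neuregulin 4, FGF21, VEGF-A and BMP8B act on liver, nerves and vessels, and cold is a classical stimulus for several of them.

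The libraries held 2454493 to 4827956 counts in CTR and 1823167 to 3392538 in CAC, and mitochondrially encoded genes took 28.5% to 33.8% of them. Values are given as CPM, which are counts scaled to a common library size, after TMM scaling for library composition. A count of 0 allows up to 3 counts, which equals 0.661 to 1.62 CPM depending on the library; this limit and the count intervals below cover counting error only. Brown adipocyte identity was checked on 12 marker genes, of which 12 passed the low-count filter and 0 were called by edgeR or DESeq2 (4 at an unadjusted p under 0.05). Those 4 went in both directions. Cox7a1 and Cox8b were lower in CAC (log2 fold change -0.22 each), and Ppara and Kcnk3 were higher (0.50 and 0.49). Ucp1 stood at 3965 ± 186 CPM (SD, n = 4) in CTR and 4059 ± 601 CPM in CAC.

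Of the 10 genes, 6 were expressed well enough for the test across genes: Adipoq, Retn, Rbp4, Nrg4, Vegfa and Nampt. Lep and Apln were near detection, which means that they fell under the filter of 3.52 CPM in at least 4 libraries but exceeded 3 counts in at least 1. Fgf21 and Bmp8b were at or below detection, with no library above 3 counts. None of the 6 tested genes was called between CAC and CTR at an adjusted p under 0.05 (edgeR quasi-likelihood test, Benjamini-Hochberg adjustment over 9876 genes), where 0.932% of all tested genes were called. At an unadjusted p under 0.05 there was 1 of 6, Rbp4, against 12.9% of all tested genes, and DESeq2 also called 0 of them. Lep, under the filter, held 50 counts in CTR and 8 in CAC, and its groups overlapped.

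The 250 bases upstream of the RefSeq transcription start (GRCm38.p6) are shown for 4 members: Lep and Rbp4, whose CAC mean lay furthest below CTR, Nrg4, whose groups did not overlap, and Adipoq, the most abundant. Short motifs were searched on both strands. The TATA box was spelled TATAAA. A C/EBP-type core was spelled TTGCNNAA, where N is any base. The core of the hypoxia response element was spelled ACGTG. The GC box was spelled GGGCGG. Capitals mark a match. Where matches of different motifs overlap, as in Fgf21, they are counted for each.

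Lep, chr6:29059971-29060220, plus strand: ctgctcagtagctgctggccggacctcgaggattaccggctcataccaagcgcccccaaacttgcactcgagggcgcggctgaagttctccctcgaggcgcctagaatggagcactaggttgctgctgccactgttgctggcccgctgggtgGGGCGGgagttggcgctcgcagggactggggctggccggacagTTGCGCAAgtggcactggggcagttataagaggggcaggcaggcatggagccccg

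Rbp4, chr19:38125322-38125571, minus strand, the more upstream of its 2 starts: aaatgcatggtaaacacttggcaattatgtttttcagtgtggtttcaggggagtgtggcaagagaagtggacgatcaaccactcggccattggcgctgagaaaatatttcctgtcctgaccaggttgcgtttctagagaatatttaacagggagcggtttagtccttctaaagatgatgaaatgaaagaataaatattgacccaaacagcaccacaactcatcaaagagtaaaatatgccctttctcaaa

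Nrg4, chr9:55283626-55283875, minus strand, inside the longer annotated gene: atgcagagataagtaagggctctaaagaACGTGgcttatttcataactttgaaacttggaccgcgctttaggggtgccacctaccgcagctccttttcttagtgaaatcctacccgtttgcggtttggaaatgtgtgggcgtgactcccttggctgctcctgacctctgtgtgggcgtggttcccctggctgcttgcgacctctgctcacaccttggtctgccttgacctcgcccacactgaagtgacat

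Adipoq, chr16:23146286-23146535, plus strand: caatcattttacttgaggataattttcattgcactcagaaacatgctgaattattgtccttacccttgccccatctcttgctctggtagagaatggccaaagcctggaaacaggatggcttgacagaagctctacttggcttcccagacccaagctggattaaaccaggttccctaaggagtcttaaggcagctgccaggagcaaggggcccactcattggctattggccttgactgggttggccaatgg

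The window of Lep holds a C/EBP-type core 55 to 48 bases before the start and a GC box 98 to 93 bases before it. Such a core occurs in 9.56% of the 32851 RefSeq windows of this length, and a GC box in 32.7%. Nrg4 holds 1 hypoxia core, 222 to 218 bases before its start; these letters occur in 16.6% of windows. The windows of Adipoq and of the upstream start of Rbp4 hold none of the 4 motifs, and neither does that of Retn. The second window of Rbp4, before its downstream start (chr19:38124812-38125061), holds all 4: a TATA box 28 to 23 bases before the start, 1 C/EBP-type core, 1 hypoxia core and 2 GC boxes. It is not printed because 124 of its 250 bases are annotated exon. Across all 10 members, which matched 12 windows, 2 members hold a TATA box (12.4% of all windows), 2 a C/EBP-type core, 6 a hypoxia core and 7 a GC box. A match is a description of the letters and not evidence of binding, and the absence of a match says nothing about a factor.

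Adipoq (ENSMUSG00000022878.6, chr16:23146536-23158028, plus strand, 4 exon blocks) encodes adiponectin. It measured 915, 984, 835 and 830 CPM in CTR replicates 1 to 4 and 883, 880, 959 and 954 CPM in CAC replicates 1 to 4. The groups overlapped, and every CAC library lay inside the CTR range. The mean was 891 ± 73.2 CPM (SD, n = 4) in CTR and 919 ± 43.6 CPM in CAC. The log2 fold change was 0.04 (standard error 0.09, 95% interval -0.14 to 0.23, edgeR adjusted p = 0.891), which spans changes of -9.43% to 17.5%. With 1 library left out it ranged from 0.015 (without CTR replicate 3) to 0.092 (without CTR replicate 2). At 1634 to 3766 counts per library, counting alone accounts for a coefficient of variation of 1.88% in CTR, against an observed 8.22%. Fractions of reads occur on Adipoq in 2 of 8 libraries.

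**Figure D1:**
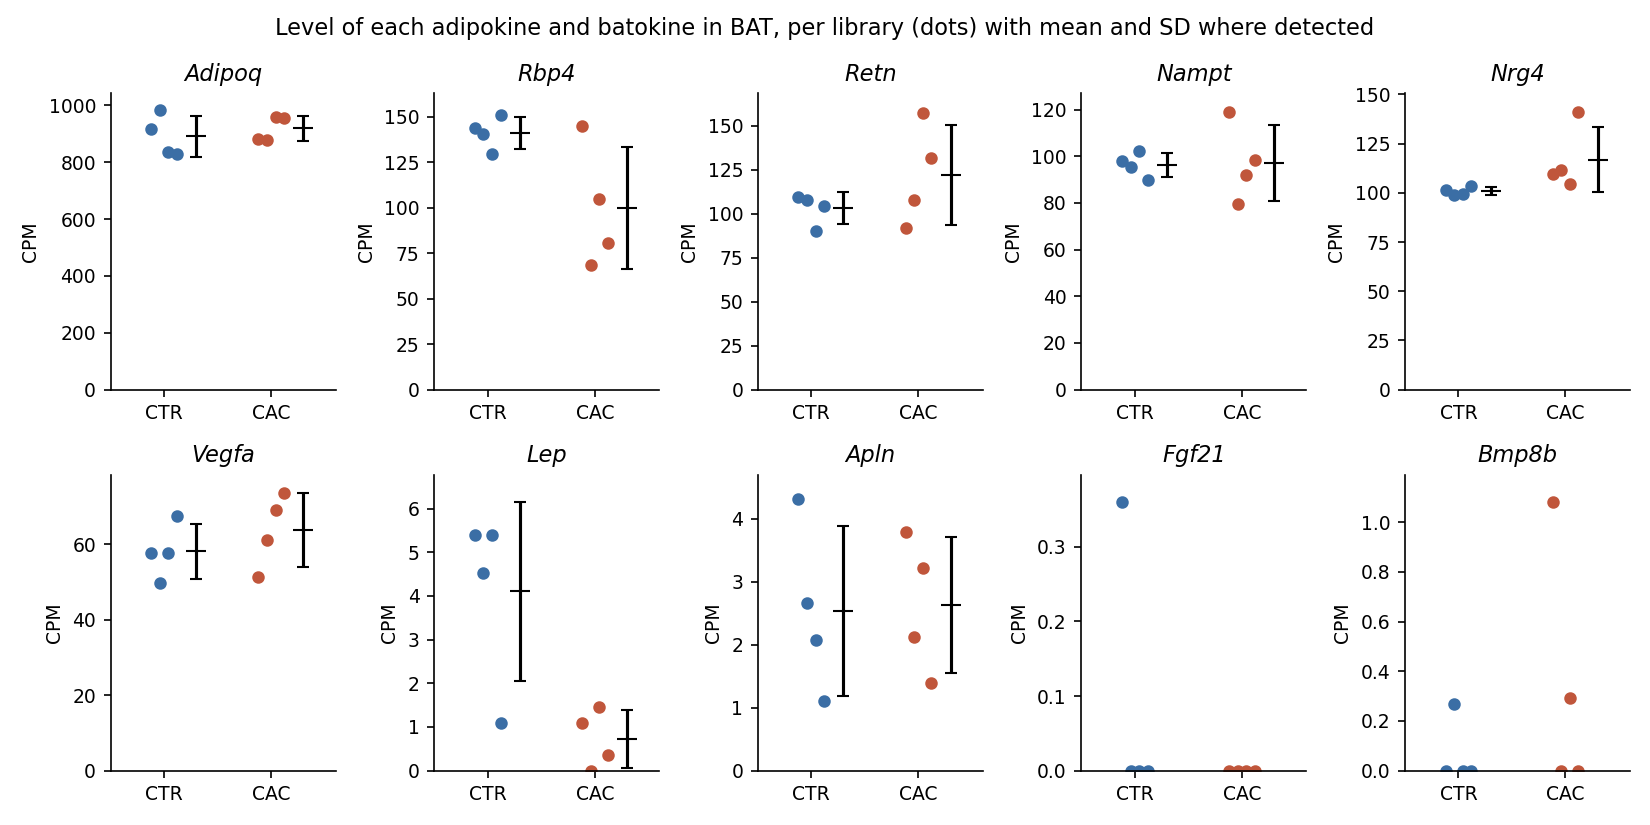
CPM (y axis, linear from 0, a scale of its own in each panel) of the 10 members in the 4 CTR and 4 CAC libraries; dots are libraries, and bars give the mean and SD except for Fgf21 and Bmp8b. Lep lies at 1.10 to 5.40 CPM in CTR and 0 to 1.47 CPM in CAC, whereas Adipoq stays between 830 and 984 CPM in all 8 libraries.

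Lep (ENSMUSG00000059201.13, chr6:29060220-29073877, plus strand, 4 exon blocks) encodes leptin, which brown adipocytes express far less than white ones. It held 15, 17, 13 and 5 counts in CTR replicates 1 to 4, and 2, 0, 5 and 1 counts in CAC replicates 1 to 4. The corresponding levels were 5.40, 4.53, 5.39 and 1.10 CPM against 1.08, 0, 1.47 and 0.349 CPM. More than 3 counts were reached in 4 of 4 CTR libraries and in 1 of 4 CAC libraries. The groups overlapped at a single point, because CAC replicate 3 lay above CTR replicate 4.

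Lep averaged 4.11 ± 2.04 CPM (SD, n = 4) in CTR and 0.724 ± 0.669 CPM in CAC, and an exact two-sided permutation test over the 70 assignments of the 8 libraries gave p = 0.0571, just above the threshold of 0.05. Summed over the libraries, the rate in CTR was 4.64 times that in CAC, with an exact 95% interval of 2.18 to 11.3 that covers counting error only and not the spread between mice. Fitted without the low-count filter, edgeR gave Lep -2.25 on the log2 scale (standard error 0.53, adjusted p = 0.00381), and DESeq2 gave -2.39 (standard error 0.78) with an adjusted p of NA. Dropping the filter raised the calls over all genes from 92 to 351, so that adjusted p was not taken as support for a difference. Without CTR replicate 4, the CTR library with the lowest level, the log2 fold change was -2.60 (edgeR adjusted p = 0.0162). It passed the filter there only through the remaining CTR libraries, where it is high, and the library left out is the one that overlapped CAC, so that value is no support for a difference. With any single CAC library left out it was tested but not called, with adjusted p from 0.122 to 0.262, and without CTR replicate 1, 2 or 3 it stayed under the filter.

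Ratios inside a library do not depend on scaling between libraries. The log2 ratio of Lep to Adipoq (counts plus 0.5) was -7.36, -7.72, -7.22 and -9.42 in CTR replicates 1 to 4, and -9.35, -11.69, -9.22 and -10.83 in CAC replicates 1 to 4. CTR replicates 1 to 3 stood above every CAC library, and CTR replicate 4 stood among the CAC values. The CTR mean was -7.93 ± 1.02 (SD, n = 4) and the CAC mean -10.27 ± 1.20, a difference of -2.34 (exact two-sided permutation p = 0.0857, the smallest possible being 0.0286). Relative to the summed CPM of 12 mature adipocyte markers, which ranged from 18341 to 19497 in CTR and from 18420 to 19768 in CAC, Lep differed by -1.95 on the log2 scale (exact permutation p = 0.0857, n = 4 against 4).

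**Figure D2:**
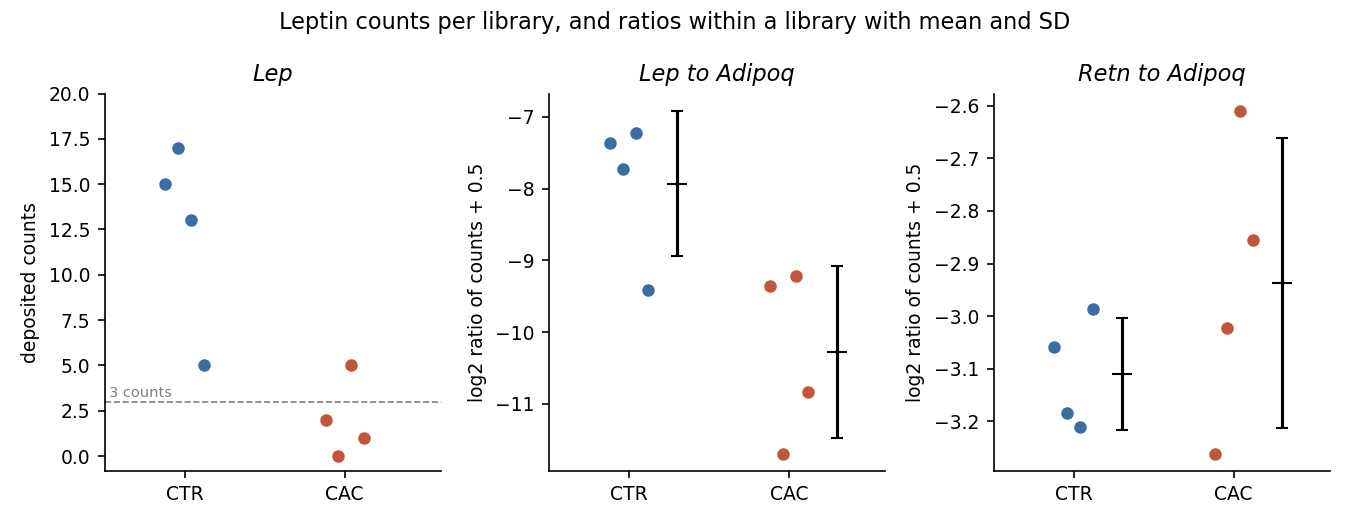
Left, deposited counts of Lep per library (dots) with a dashed line at 3 counts; middle and right, log2 ratios of Lep to Adipoq and of Retn to Adipoq within each library (counts plus 0.5), with the mean and SD of the 4 CTR and 4 CAC libraries. The ratio of Lep to Adipoq averages -7.93 in CTR and -10.27 in CAC with 1 CTR library inside the CAC range, and the axes of the ratios do not start at 0.

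Because white fat is a rich source of leptin, 10 white adipocyte markers were set beside Lep. Their summed level was 213.9 to 241.1 CPM in CTR and 179.7 to 194.6 CPM in CAC, without overlap, although 0 of the 5 tested markers were called by edgeR or DESeq2. The 1 marker with an unadjusted p under 0.05, Agt, went the other way from the sum and was higher in all 4 CAC libraries (log2 fold change 1.08, unadjusted p = 0.00115, edgeR adjusted p = 0.0778). Hoxc10, Wt1 and Upk3b were at 0 in every library, and Ntrk3 alone supplied 55.0% to 74.0% of the sum. Without Ntrk3 the sum was 73.1 to 102.1 CPM in CTR and 46.8 to 70.6 CPM in CAC. Most of that remainder came from Nnat and Npr3, and each overlapped between the groups. Nnat measured 22.1 to 50.3 CPM in CTR and 3.19 to 31.6 CPM in CAC, and Npr3 27.7 to 37.8 and 16.0 to 42.2 CPM. In bulk tissue, fewer cells of a type and less RNA per cell cannot be told apart, and the part of white adipocytes in the Lep values was not tested.

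Retn (ENSMUSG00000012705.17, chr8:3655770-3660110, plus strand, 5 exon blocks) encodes resistin, which in mice is made by adipocytes and opposes insulin action. It measured 110, 108, 90.0 and 105 CPM in CTR replicates 1 to 4 and 91.9, 108, 157 and 132 CPM in CAC replicates 1 to 4. CAC replicates 3 and 4 exceeded every CTR library, and the other 2 lay within the CTR range. Retn averaged 103 ± 8.99 CPM (SD, n = 4) in CTR and 122 ± 28.4 CPM in CAC, and its log2 fold change was 0.25 (standard error 0.14, 95% interval -0.03 to 0.54, edgeR adjusted p = 0.460). With 1 library left out that value ranged from 0.10 without CAC replicate 3 (adjusted p = 0.804) to 0.37 without CAC replicate 1 (adjusted p = 0.173). Its log2 ratio to Adipoq averaged -3.11 ± 0.11 in CTR (SD, n = 4) and -2.94 ± 0.27 in CAC (exact permutation p = 0.343), and the groups overlapped there too.

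Rbp4 (ENSMUSG00000024990.14, chr19:38116629-38125281, minus strand, 7 exon blocks) encodes retinol-binding protein 4, the plasma carrier of retinol, which liver and fat release. It measured 144, 141, 129 and 151 CPM in CTR replicates 1 to 4 and 145, 68.6, 105 and 80.9 CPM in CAC replicates 1 to 4. In 3 of 4 CAC libraries it lay below every CTR library, whereas CAC replicate 1 sat inside the CTR range. Rbp4 averaged 141 ± 8.87 CPM (SD, n = 4) in CTR and 99.7 ± 33.6 CPM in CAC, and its log2 fold change was -0.51 (standard error 0.18, 95% interval -0.91 to -0.10, edgeR adjusted p = 0.265). The unadjusted edgeR p was 0.0182, and 5.93% of all tested genes had an unadjusted p under 0.05 and were lower in CAC. With all 8 libraries it was called only when the low-count filter was dropped (-0.53, adjusted p = 0.00116), among the normalizations, filters and tools tried. That setting called 351 genes over all genes, against 92 with the filter. Leaving out 1 library gave an adjusted p of 0.00621 without CAC replicate 1 (-0.72) and 0.303 to 0.468 without any other. CAC replicate 1 is the CAC library inside the CTR range, so its removal separates the groups by construction and is no support for a difference. The coefficient of variation in CAC was 33.7%, against 6.61% from counting alone, so the spread among CAC mice exceeded what depth sets.

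Per unit of mature adipocyte markers, Rbp4 differed by -0.57 on the log2 scale (exact permutation p = 0.0857, n = 4 against 4). With the 12 brown adipocyte markers as the denominator the difference was -0.65 and the groups were separated (exact permutation p = 0.0286, the smallest that 70 assignments allow). The sum of those brown markers was 12904.5 to 15793.9 CPM in CTR and 13040.3 to 17051.3 CPM in CAC, highest in CAC replicate 1. That library's Rbp4 lay inside the CTR range in CPM, so the separation rests on its denominator. The call for Rbp4 therefore changed with the denominator, and this p is no support for a difference.

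Nrg4 (ENSMUSG00000032311.18, chr9:55220222-55326844, minus strand, 20 exon blocks) encodes neuregulin 4, a brown fat-enriched ligand of ERBB receptors that acts on the liver. It measured 101, 99.1, 99.6 and 103 CPM in CTR replicates 1 to 4 and 110, 112, 105 and 141 CPM in CAC replicates 1 to 4. Each of the 4 CAC values exceeded each of the 4 CTR values, as was the case for 3.64% of all tested genes. Nrg4 averaged 101 ± 1.97 CPM (SD, n = 4) in CTR and 117 ± 16.5 CPM in CAC, and its log2 fold change was 0.21 (standard error 0.11, 95% interval -0.02 to 0.44, edgeR adjusted p = 0.433). CAC replicate 4 was the highest, and without it the log2 fold change was 0.11 (adjusted p = 0.740). The CTR libraries varied by 1.95%, less than the 5.59% that counting alone gives.

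Per unit of mature adipocyte markers, Nrg4 was higher in CAC by 0.19 on the log2 scale (exact permutation p = 0.0286, the smallest possible, n = 4 against 4). Per unit of brown adipocyte markers the difference was 0.11 and did not pass (exact permutation p = 0.457). The annotated Nrg4 gene overlaps Fbxo22 and Gm15625 on the opposite strand, whether counting used strand is not given in the sources used here, and fractions of reads shared with other genes occur on Nrg4 in 3 of 8 libraries.

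Vegfa (ENSMUSG00000023951.19, chr17:46016993-46032369, minus strand, 8 exon blocks) encodes VEGF-A, the main growth factor of blood vessels, which brown adipocytes release during thermogenic growth of the tissue. It measured 57.6, 49.8, 57.7 and 67.5 CPM in CTR replicates 1 to 4 and 51.4, 61.2, 69.2 and 73.6 CPM in CAC replicates 1 to 4. The ranges overlapped, with 2 CAC libraries above every CTR library. Vegfa averaged 58.1 ± 7.23 CPM (SD, n = 4) in CTR and 63.8 ± 9.76 CPM in CAC, and the log2 fold change was 0.14 (standard error 0.13, 95% interval -0.13 to 0.41, edgeR adjusted p = 0.702). It was 0.068 without CTR replicate 2 and 0.24 without CTR replicate 4, the lowest and highest values with 1 library left out.

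Nampt (ENSMUSG00000020572.9, chr12:32819545-32853349, plus strand, 13 exon blocks) encodes the enzyme that limits NAD salvage and, outside cells, the adipokine known as visfatin. It measured 97.9, 95.3, 102 and 89.7 CPM in CTR replicates 1 to 4 and 119, 79.8, 92.0 and 98.3 CPM in CAC replicates 1 to 4. CAC replicate 1 held the highest value and CAC replicate 2 the lowest, so the CAC range enclosed the CTR range. The means were 96.3 ± 5.16 CPM (SD, n = 4) in CTR and 97.3 ± 16.4 CPM in CAC, the log2 fold change was 0.02 (standard error 0.12, 95% interval -0.23 to 0.26, edgeR adjusted p = 0.975), and its sign turned with the scaling. Fractions of reads occur on Nampt in 7 of 8 libraries, and Gdap10 overlaps it on the same strand.

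**Figure D3:**
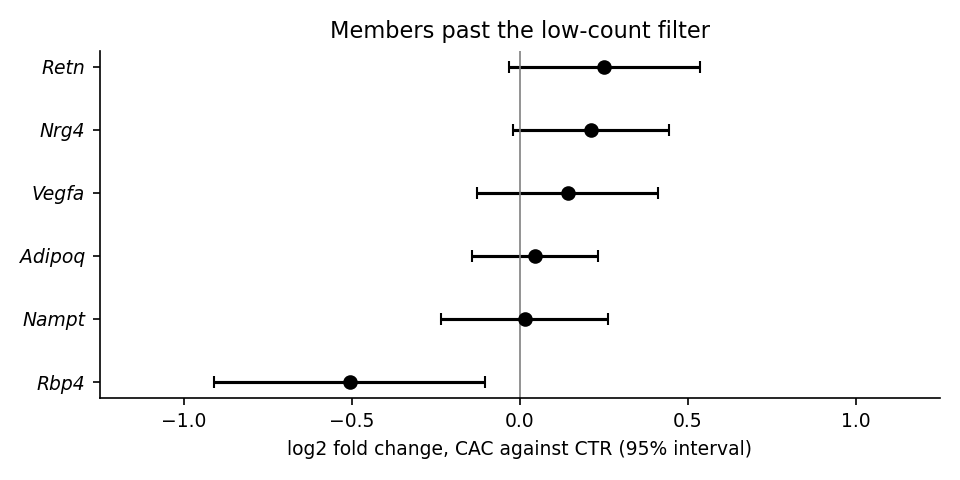
Log2 fold change of CAC against CTR (x axis) with its 95% interval for the 6 members past the low-count filter, from edgeR's quasi-likelihood fit. Retn, Nrg4, Vegfa, Adipoq and Nampt include 0 in their intervals, and Rbp4 spans -0.91 to -0.10 with an adjusted p of 0.265.

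Apln (ENSMUSG00000037010.8, chrX:48025146-48034853, minus strand, 3 exon blocks) encodes apelin, a peptide of adipocytes and endothelium that acts through APLNR. It held 12, 10, 5 and 5 counts in CTR replicates 1 to 4 and 7, 4, 11 and 4 counts in CAC replicates 1 to 4. Every library exceeded 3 counts and the groups overlapped fully. Apln averaged 2.54 ± 1.35 CPM (SD, n = 4) in CTR and 2.63 ± 1.07 CPM in CAC (exact permutation p = 0.914). The pooled rate in CAC over CTR was 1.09 with a counting interval of 0.626 to 1.89, so a change smaller than that was not detectable at this depth.

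Fgf21 (ENSMUSG00000030827.6, chr7:45613886-45615490, minus strand, 3 exon blocks) encodes a hormone of liver and cold-activated brown fat. It held 1 count in CTR replicate 1 and 0 in the other 7 libraries. Bmp8b (ENSMUSG00000002384.3, chr4:123105165-123132099, plus strand, 10 exon blocks) encodes a BMP that raises the response of brown fat to noradrenaline. It held 1 count in CTR replicate 2, 2 counts in CAC replicate 1 and 1 count in CAC replicate 3, and 0 in the other 5 libraries. Both genes lay at or under the limit that a count of 0 allows in every library, so no fold is given and a difference was not detectable at this depth. The annotated Bmp8b gene shares sequence positions with Oxct2b on the same strand and with Gm17244 and Ppie on the opposite strand.

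Levels of different genes were compared per kilobase (kb) of annotated exon. In CTR the order was Adipoq (645 ± 53.0 CPM per kb, SD, n = 4), Rbp4 (105 ± 6.60), Retn (65.3 ± 5.70), Nampt (19.0 ± 1.02), Nrg4 (16.6 ± 0.325), Vegfa (13.6 ± 1.69), Lep (1.22 ± 0.609) and Apln (0.807 ± 0.428), with Fgf21 and Bmp8b at 0 in 3 of 4 libraries each. Per kb, neighbours did not overlap from Adipoq down to Lep, and Lep overlapped Apln. In CAC, Retn (77.4 ± 18.0) and Rbp4 (74.3 ± 25.0) overlapped, as did Nampt (19.2 ± 3.24) and Nrg4 (19.2 ± 2.72). Apln (0.836 ± 0.341) lay above Lep (0.216 ± 0.199) in CAC without overlap per kb, from 0.443 CPM per kb upward against 0.437 at most. In CPM they overlapped in CAC, with Apln at 1.39 in replicate 4 and Lep at 1.47 in replicate 3. Whether reads cover whole transcripts or only their ends is not given in the sources used here, and dividing by length is apt only in the first case. Without that division Nrg4 (101 CPM) stands above Nampt (96.3 CPM) in CTR. The CTR ranges of Retn (90.0 to 110 CPM), Nrg4 (99.1 to 103 CPM) and Nampt (89.7 to 102 CPM) then overlap. In CAC, Nrg4 (117 CPM) then stands above Rbp4 (99.7 CPM).

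Receptors and binding partners of the members were followed as a list of 24 genes, of which 15 were tested. Flt1 rose, 0 fell, and 14 did not pass the test. The list's median log2 fold change was -0.02, beside 0.00 over all tested genes, and of all tested genes 0.739% were called higher and 0.192% lower in CAC.

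Flt1 encodes VEGFR1, a high-affinity receptor of VEGF-A with weak kinase activity. It measured 52.9, 53.0, 55.2 and 48.5 CPM in CTR replicates 1 to 4 and 73.5, 73.9, 77.4 and 76.3 CPM in CAC replicates 1 to 4. The groups did not overlap. Flt1 rose by 0.53 on the log2 scale (standard error 0.11, edgeR adjusted p = 0.0166), a call lost without CTR replicate 1, CTR replicate 4 or CAC replicate 3, where the adjusted p was 0.0570, 0.0511 and 0.0556. Kdr, the main signalling receptor of VEGF-A, measured 179, 193, 160 and 145 CPM in CTR and 156, 143, 140 and 103 CPM in CAC, and its log2 fold change was -0.32 (standard error 0.12, adjusted p = 0.259; -0.20 without CAC replicate 4). The coreceptors Nrp1 and Nrp2 had log2 fold changes of 0.10 and 0.02 (adjusted p = 0.747 and 0.966). Flt1 and Kdr are endothelial genes as well. The summed level of 12 endothelial markers, a list that holds Kdr and Aplnr, was 1321 to 1361 CPM in CTR and 1101 to 1557 CPM in CAC, with 1 of 11 tested markers, Esam, called higher. Egfl7 alone supplied most of that sum, at 905 to 975 CPM in CTR and 763 to 1175 CPM in CAC. The part of endothelial cells in the Flt1 values was not tested.

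For adiponectin, Adipor2 (431 ± 29.6 CPM in CTR, 474 ± 64.9 CPM in CAC, SD, n = 4) and Adipor1 (30.4 ± 3.52 and 29.2 ± 3.30 CPM) had adjusted p of 0.623 and 0.941, and the adiponectin-binding cadherin Cdh13 0.959. Aplnr, the apelin receptor, measured 6.12, 7.72, 7.88 and 6.61 CPM in CTR and 2.16, 6.91, 5.57 and 2.44 CPM in CAC (log2 fold change -0.72, unadjusted p = 0.0324, edgeR adjusted p = 0.326). The FGF21 receptor pair Fgfr1 and Klb both had a log2 fold change of -0.24 (adjusted p = 0.570 and 0.593), while their ligand Fgf21 was at or below detection. Among receptors of the BMP8B kind, Bmpr1a had 0.50 (unadjusted p = 0.0564, adjusted p = 0.402), Acvr2b 0.49 (0.568), Acvr1c -0.13 (0.705) and Bmpr2 -0.02 (0.974). The leptin receptor Lepr held 1 count in each of 2 CAC libraries and 0 elsewhere, the neuregulin receptors Erbb3 and Erbb4 reached at most 4.5 and 10 counts, and the retinol transporters Stra6 and Stra6l at most 3 and 0. Cap1, a resistin-binding protein, had 0.18 (adjusted p = 0.855), and Tlr4, Ttr, Bmpr1b and Acvr2a were under the filter.

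**Figure D4:**
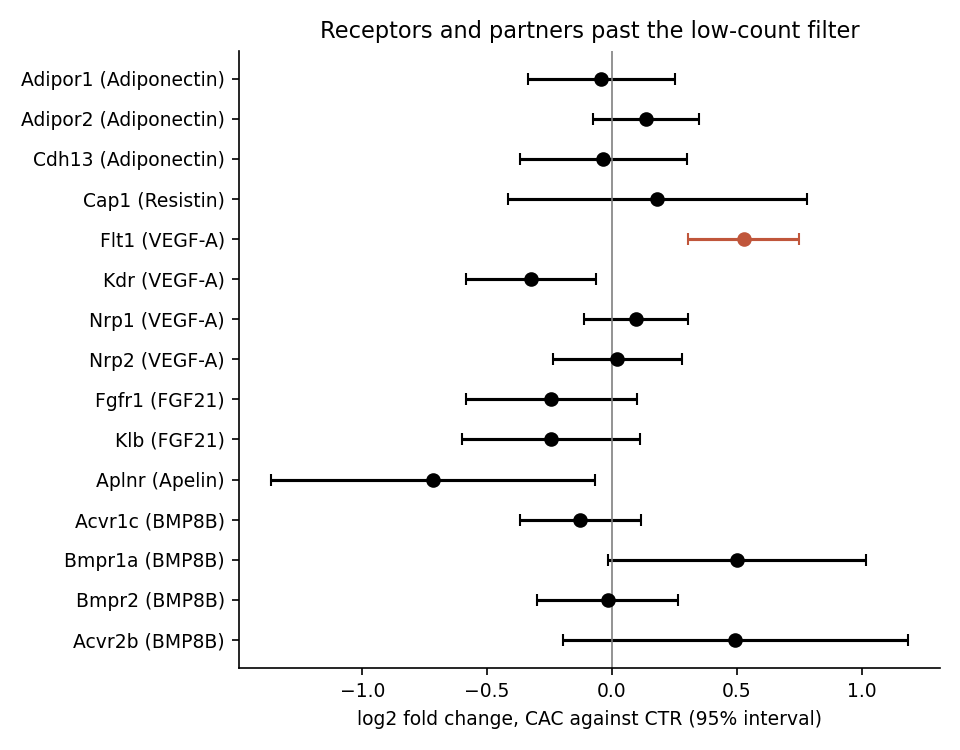
Log2 fold change of CAC against CTR (x axis) with its 95% interval for the 15 tested receptors and binding partners, labelled with the ligand they bind; the called gene is drawn in red. Flt1 lies at 0.53 and is called, and Kdr lies on the other side of 0 at -0.32 without being called.

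Relatives of the members in the same gene families gave 17 rows, of which 6 were tested and 1, Retnlg, was called (median log2 fold change 0.03). Retnlg (chr16:48872621-48874496, plus strand) encodes resistin-like gamma, a myeloid product. It measured 0.360, 0.533, 2.07 and 1.10 CPM in CTR replicates 1 to 4 and 19.5, 4.79, 13.5 and 5.23 CPM in CAC replicates 1 to 4. Its groups did not overlap (log2 fold change 3.40, standard error 0.58, edgeR adjusted p = 0.0155). That adjusted p was 0.0672, 0.0738 and 0.0523 without CTR replicate 1, 2 and 4. Retnlg passed the low-count filter only through the CAC libraries, where it is high, so its call is no support for a difference. It was not tested when at least 10 counts were asked for in every library. Retn itself was not called, and Retnla, the adipose resistin-like alpha, had 0.17 (adjusted p = 0.814). The summed level of 12 neutrophil markers, which include Retnlg, was 12.0 to 15.2 CPM in CTR and 175.7 to 449.2 CPM in CAC. Of 4 tested markers 3 were called higher, S100a8, S100a9 and Retnlg, and each of these reached the filter only through the CAC libraries, so their count is no support for a difference. S100a8 and S100a9, which other cells can also express, supplied 84.9% to 89.9% of the sum in CAC and 34.5% to 42.9% in CTR, and the other 10 markers summed to 7.20 to 9.32 CPM in CTR and 20.9 to 45.4 CPM in CAC. Camp, Cxcr2 and Ly6g were at 0 in every CTR library, and Camp and Ly6g were also at 0 in CAC replicates 2 and 4. Cxcr2 held 2, 5, 7.5 and 4 counts in CAC replicates 1 to 4. Ngp held 0, 0, 1 and 1 counts in CTR and 3, 4, 9 and 7 in CAC, and Mmp8 held 1, 0, 0 and 0 in CTR and 4, 1, 3 and 2 in CAC. The groups of Cxcr2, Ngp and Mmp8 did not overlap in CPM, at counts near the floor of 3, whereas those of Csf3r, Ltf and Mmp9 in the same list overlapped narrowly. The highest CTR and lowest CAC values were 0.533 and 0.532 CPM for Csf3r, 0.360 and 0.349 CPM for Ltf, and 8.26 and 8.20 CPM for Mmp9. Mmp8 held 1 count in both CTR replicate 1 and CAC replicate 2, so its separation rests on library size. Among all tested genes, 3.64% had every CAC value above every CTR value. The part of neutrophils in the Retnlg values was not tested. Vegfb measured 221 ± 13.8 CPM (SD, n = 4) in CTR and 188 ± 7.92 CPM in CAC (log2 fold change -0.24, adjusted p = 0.274), and Rbp7 had 0.23 (adjusted p = 0.682), with 0.052 without CTR replicate 2 and 0.46 without CTR replicate 4. Bmp8a, the closest relative of Bmp8b, did not exceed 1 count.

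Other secreted factors of fat formed a list of 42 genes, of which 41 were found and 21 tested. None was called by edgeR at an adjusted p under 0.05, where 0.932% of all tested genes were called. An unadjusted p under 0.05 was found for 7 of them, and for 12.9% of all tested genes. DESeq2 called 2 of them, and 101 over all genes. The median log2 fold change was 0.13. Cfd, the complement factor adipsin and the most abundant of them, measured 3952 ± 611 CPM (SD, n = 4) in CTR and 5622 ± 1029 CPM in CAC (log2 fold change 0.51, edgeR adjusted p = 0.0881). Apoe, which carries lipid, measured 1252 ± 72.2 and 1643 ± 253 CPM (0.39, adjusted p = 0.0763), and Agt, the precursor of angiotensin, 4.46 ± 2.04 and 9.77 ± 1.77 CPM (1.08, adjusted p = 0.0778). DESeq2 called Cfd and Apoe (adjusted p = 0.0356 and 0.0462), and 12 macrophage markers summed to 204.2 to 226.0 CPM in CTR and 279.2 to 380.3 CPM in CAC, with 2 of 7 tested markers called higher. The part of macrophages in the Cfd and Apoe values was not tested.

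Genes around the members' making and action gave 1 call in 3 lists. Of 16 rows for NAD salvage and use, the pathway of Nampt, 9 were tested and 0 called (0 also by DESeq2 and at an unadjusted p under 0.05 in edgeR; median log2 fold change 0.04); Nadk, Sirt3 and Nmrk1 had -0.26, -0.27 and -0.34 (adjusted p = 0.499, 0.598 and 0.634), and came nearest to 0 at -0.12 without CAC replicate 1, -0.099 without CAC replicate 3 and -0.14 without CAC replicate 4; Nmrk1 reached -0.63 without CAC replicate 2. Of 8 genes for adiponectin folding and secretion, 8 were tested and 0 called by edgeR or DESeq2 (1 at an unadjusted p under 0.05, P4ha1, log2 fold change 0.65, edgeR adjusted p = 0.265; median 0.10); Gstk1 and Pdia6 had -0.20 and -0.17 (adjusted p = 0.554 and 0.664), and -0.12 without CAC replicate 2 and -0.076 without CAC replicate 4; Pdia6 had -0.26 without CTR replicate 4. Of 18 hypoxia-responsive genes, a program that can raise Vegfa and Lep, 14 were tested and 1, Bnip3, was called higher (median 0.09). Bnip3, a mitophagy receptor, measured 97.2, 82.6, 105 and 96.6 CPM in CTR and 118, 120, 142 and 162 CPM in CAC (0.52, edgeR adjusted p = 0.0398), with fractions of reads in all 8 libraries, and was not called under upper quartile scaling or limma, nor without CTR replicate 1, 2 or 4 or CAC replicate 3 or 4 (adjusted p 0.0507 to 0.147). Egln3 had 0.53 and Epas1 -0.27 (adjusted p = 0.253 and 0.277).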

How the data were processed

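Single-end RNAseq reads of BAT from 4 CTR and 4 CAC mice were aligned with HISAT2 2.2.1 to mm10 and counted with the multi-mapping option of featureCounts by the authors, who deposited expected counts for 56953 genes (reads per gene with fractions, not normalized) and a signal for 24792 genes (counts over 1 DESeq2 size factor per library, equal for 100% of values within 0.01 counts). The strand setting is not given in the sources used here.

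Counts were rounded and fitted with edgeR 4.0.16 (R 4.3.3): filterByExpr, TMM, robust quasi-likelihood test, no covariates, Benjamini-Hochberg adjustment over 9876 genes, threshold 0.05. CPM use TMM-scaled library sizes. Genes under the filter and ratios within a library (0.5 added) were compared by exact two-sided permutation tests over 70 assignments (scipy 1.17.1); p-values measure the spread between single mice. Standard errors are the log2 fold change over the root of the quasi-likelihood F. The procedure was tested on simulated data. Replicate libraries of a group differed beyond sampling noise (chi-square per degree of freedom 4.31 to 10.1). Same-numbered libraries of the groups did not deviate together (correlations -0.02 to 0.04), so numbers were not used as pairs.

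The members and lists were chosen with earlier results of these data known. Named were all 10 members, the listed receptors of each, and of every other list the called genes or, if fewer than 3, those with the smallest p up to 3. Retnla, Bmp8a, Ucp1, Cox7a1, Cox8b, Ppara, Kcnk3, Enho, Lcn2, Angptl8, Ptgds, Gdf15, Slc4a1, Esam, Egfl7, S100a8, S100a9, Camp, Cxcr2, Ngp, Mmp8, Csf3r, Ltf, Mmp9, Ly6g, Hoxc10, Wt1, Upk3b, Ntrk3, Nnat, Npr3, Xist and Ddx3y were named after their values were seen. Coordinates and exon lengths are from GENCODE M21 (GRCm38), matched by gene ID without version for all 10 members. Alternatives were DESeq2 1.42.0, limma 3.58.1 with a trend on the deposited signal plus 1, other normalizations and filters, fractions cut off, a replicate block, other denominators and pseudocounts, and each library left out. The authors' fold changes were not used here, and the study's protein data were not analysed here.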

Additional observations from a re-analysis of the deposited data

Results flagged for a closer look

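Among 79 groups of 4 libraries examined for a library far from the others, 3 stood out, where chance gives about 1 in 20 groups, here about 4.0. Fgf21 measured 0.360 CPM in CTR replicate 1 against 0 in the other 3 CTR libraries, and Bmp8b measured 0.266 CPM in CTR replicate 2 against 0 in the others; each value is a single count. Sirt3, a mitochondrial NAD-dependent deacylase, measured 15.8 CPM in CTR replicate 1 against 24.0 to 25.1 CPM in the other CTR libraries. No explanation was tested for these values.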

How the results depend on the processing

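Depth limits Lep, Apln, Fgf21 and Bmp8b, which hold at most 17, 12, 1 and 2 counts in a library. With 1 library left out, 3 against 4 cannot reach an exact p below 0.0571, and 4 pairs cannot go below 0.125, so losing a call there says nothing about stability.

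Over all genes, 92 calls became 351 with no low-count filter, 183 at an adjusted p under 0.1, 1278 at an unadjusted p under 0.05 and 42 to 135 when 1 library was left out. Members called numbered 2 with no low-count filter (Lep and Rbp4), 1 at an unadjusted p under 0.05 and 0 to 1 with 1 library left out (Lep without CTR replicate 4, where it passed the filter only through CTR, and Rbp4 without CAC replicate 1). Receptors called (1) became 3 at an unadjusted p under 0.05 and 0 to 1 with 1 library left out; relatives (1) became 0 with at least 10 counts in every library, 2 unadjusted and 0 to 1 with 1 library left out, Retnlg being lost without CTR replicate 1, 2 or 4 (adjusted p 0.0672, 0.0738 and 0.0523). Other secreted factors (0) became 2 with DESeq2, 6 with no filter, 3 at an adjusted p under 0.1, 7 unadjusted and 0 to 3 with 1 library left out. Hypoxia-responsive genes (1) became 0 by upper quartile scaling, 0 by limma-trend, 3 unadjusted and 0 to 1 with 1 library left out, Bnip3 being lost without CTR replicate 1, 2 or 4 or CAC replicate 3 or 4 (adjusted p 0.0602 to 0.147). The folding list became 1 unadjusted. The causes were not tested.

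The log2 fold change of Nampt turned to -0.0040 by library size only, -0.0071 by upper quartile scaling and -0.011 with no filter, and ranged from -0.083 to 0.095 with 1 library left out. The difference of Apln in CPM ranged from -0.387 to 0.685 with 1 library left out. Per unit of brown adipocyte markers, Adipoq differed by -0.047, Apln by -0.0098, Rbp4 by -0.65 (now past the threshold) and Nrg4 by 0.11; with the geometric mean of the mature markers Nampt differed by 0.0080 and Nrg4 by 0.21 (exact permutation p = 0.0571, n = 4 against 4). With 1 library left out the per-marker differences ranged from -0.015 to 0.082 for Adipoq, 0.11 to 0.23 for Nrg4, -0.11 to 0.064 for Nampt and -0.22 to 0.33 for Apln.

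With the replicate number as a block, 140 genes were called, 0 members and 1 other secreted factor; the paired difference of Nrg4 per mature marker was 0.19 (exact sign-flip p = 0.125, n = 4 pairs), and the block changed no other call listed here. Of 108 fits of the 6 tested members, 101 kept direction and side of the threshold, 5 turned the sign of Nampt and 2 called Rbp4.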

Other observations

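Among listed factors not described above, the groups of Lcn2 and Enho did not overlap in CPM, whereas those of Angptl8 and Ptgds did. Lcn2, lipocalin 2, a secreted iron-siderophore-binding protein of neutrophils and stressed fat that is counted in 2 of the lists, was under the filter at 0.360, 0, 0 and 0 CPM in CTR replicates 1 to 4 and 5.41, 2.13, 3.81 and 1.74 CPM in CAC replicates 1 to 4, where counts are rounded and CTR replicate 4 held 0.5 counts (exact two-sided permutation p = 0.0286, the smallest possible, n = 4 against 4). Every CTR library held Lcn2 under the floor of 3 counts, and 3.64% of all tested genes had every CAC value above every CTR value. Lcn2 was picked after its values were seen, so its p is no support for a difference. Enho, which encodes the secreted peptide adropin, held 1, 0.5, 0.5 and 2 counts in CTR and 1, 2.5, 7.5 and 2 in CAC, nearly all under the floor of 3 counts. These counts overlapped. Equal counts gave a higher CPM in smaller libraries, as 1 count was 0.360 CPM in CTR replicate 1 and 0.541 CPM in CAC replicate 1. The exact permutation p of 0.0286 on its CPM is therefore no support for a difference. Angptl8, an insulin- and feeding-responsive inhibitor of lipid uptake, measured 36.0, 18.4, 23.7 and 13.9 CPM in CTR and 13.0, 9.57, 14.4 and 7.32 CPM in CAC (log2 fold change -1.01, edgeR adjusted p = 0.176). Ptgds, which makes prostaglandin D2, had -1.55 (edgeR adjusted p = 0.148). Gdf15, a stress hormone linked to appetite loss, was at 0 counts in all 8 libraries, which allows up to 3 counts in each. These genes were chosen after their values were seen.

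Sums of the other marker lists overlapped between the groups, and no test of the sums was run. Skeletal muscle markers summed to 1471 to 3585 CPM in CTR and 3202 to 5737 CPM in CAC; 12 of 12 were higher in CAC by their fitted value (median log2 fold change 0.96), 1 of them called by edgeR, 3 by DESeq2 and 7 at an unadjusted p under 0.05. Erythroid markers summed to 6180 to 19269 CPM in CTR and 14637 to 44327 CPM in CAC; 6 of 6 tested were higher (median 1.56), 1 called by edgeR and by DESeq2 and 5 at an unadjusted p under 0.05. The called one, Slc4a1, held 0, 3, 4 and 0 counts in CTR and passed the filter only through the CAC libraries. Markers of progenitors and fibroblasts (1 of 12 called higher by edgeR, 1 by DESeq2, 3 at an unadjusted p under 0.05), Schwann cells (0 of 3 by edgeR or DESeq2, 0 at an unadjusted p under 0.05) and mature adipocytes (0 of 12 by edgeR or DESeq2, 2 at an unadjusted p under 0.05) had overlapping sums too. The part of these cells in the members' values was not tested.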
